A study of Homo sapiens with 4 samples.

Results

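Target genes of the tumour suppressor p53 were followed in T24 cells, a human bladder carcinoma line, after knockdown of NSUN2. The members are 32 genes of a list of p53 targets, found by current or older symbol among the 62893 rows of the gene count table, and all 32 were found. NSUN2 is an RNA methyltransferase that places 5-methylcytosine on tRNAs and some mRNAs. The tested group holds 2 T24 libraries labelled siNSUN2 (replicates 1 and 2), and the other holds 2 T24 libraries labelled siControl (replicates 1 and 2). Both were made from poly(A) RNA with a stranded kit. The sequence and number of the siRNAs, the time after transfection and whether the replicates came from separate cultures were not given in the sources used here. The p-values therefore set the difference between the groups against the variation within the groups of these 4 libraries, and that variation may be technical. T24 is 1 cell line, so the values hold for that line alone. In bulk RNA, fewer cells expressing a gene and less of its RNA per cell cannot be told apart.

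As background, p53 is a transcription factor that is held low by the ubiquitin ligase MDM2 and is stabilised after DNA damage and other stresses. It binds a paired motif near its targets and raises genes that stop the cell cycle, repair DNA, limit oxidants and trigger death through mitochondria or death receptors. Several targets, MDM2 first among them, feed back to limit p53. Many of the same genes also respond to other factors: SESN2, TNFRSF10B, PMAIP1, BBC3 and GADD45A are also known as targets of ATF4 or CHOP, the transcription factors of the integrated stress response.

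The siNSUN2 libraries held 92640839 and 33633249 counts, and the siControl libraries held 42298529 and 215936965. NSUN2 itself was at 29.6 and 30.1 CPM (counts in 1e+06 of the library's total after TMM scaling) in the siNSUN2 libraries, against 281 and 284 CPM in the siControl libraries. The log2 fold change of NSUN2, siNSUN2 over siControl, was -3.24 (SE 0.043; adjusted p = 1.64e-09, edgeR's quasi-likelihood test with Benjamini-Hochberg adjustment over all genes tested). KRT8, KRT18 and KRT7, keratins of simple and urothelial epithelium, were present at 108 to 633 CPM in every library. UPK1A, UPK2, EPCAM, CDH1, KRT5, KRT13, KRT19, KRT20 and GATA3 stayed under 1 CPM, and UPK3A, a uroplakin of the differentiated urothelium, was at 0. UPK1B was at 1.62 to 4.18 CPM and FOXA1 at 5.78 to 6.77 CPM. PPARG was at 23.5 and 22.5 CPM with siNSUN2, against 14.4 and 13.7 CPM with siControl. The mesenchymal marker VIM was at 1770 and 1760 CPM in siNSUN2 libraries, against 1020 and 1050 CPM in siControl libraries. Summed over 4 endothelial markers, the level was 2.50 and 11 CPM with siNSUN2, against 0.635 and 0.400 CPM with siControl, with PECAM1 at 0 throughout. Most of the 11 CPM was VWF in siNSUN2 replicate 2, at 8.73 CPM, against 1.80 CPM in siNSUN2 replicate 1. The erythroid marker HBB was at 2.66 CPM in siNSUN2 replicate 2, 0.188 CPM in siControl replicate 2 and 0 in both replicates 1. Of the 2 endothelial markers tested, 0 were called. The part of these in the results was not tested.

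Of the 32 p53 target genes, 31 had enough counts to be tested. With siNSUN2, 18 were higher, 8 were lower and 5 were not called at an adjusted p under 0.05. Over all 16889 genes tested, 52.6% were called, with 27.1% higher and 25.5% lower. The share of members called was 83.9%, with 58.1% higher and 25.8% lower. The share over all genes tested includes genes with few counts. In a fit of the 12727 genes with a mean of at least 1 CPM, 4267 were called higher and 4215 lower. Of the 29 members in that fit, 17 were higher and 8 were lower. The median log2 fold change of the members was 0.46, against 0.03 over all genes tested. Among the members called, 4 were higher by a fold of 2 or more (BBC3, PHLDA3, TP53INP1 and PLK3) and 0 were lower by that much. The siNSUN2 and siControl values did not overlap for 29 of the 31 members (93.5%), and for 74.6% of all genes tested.

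**Figure D1:**
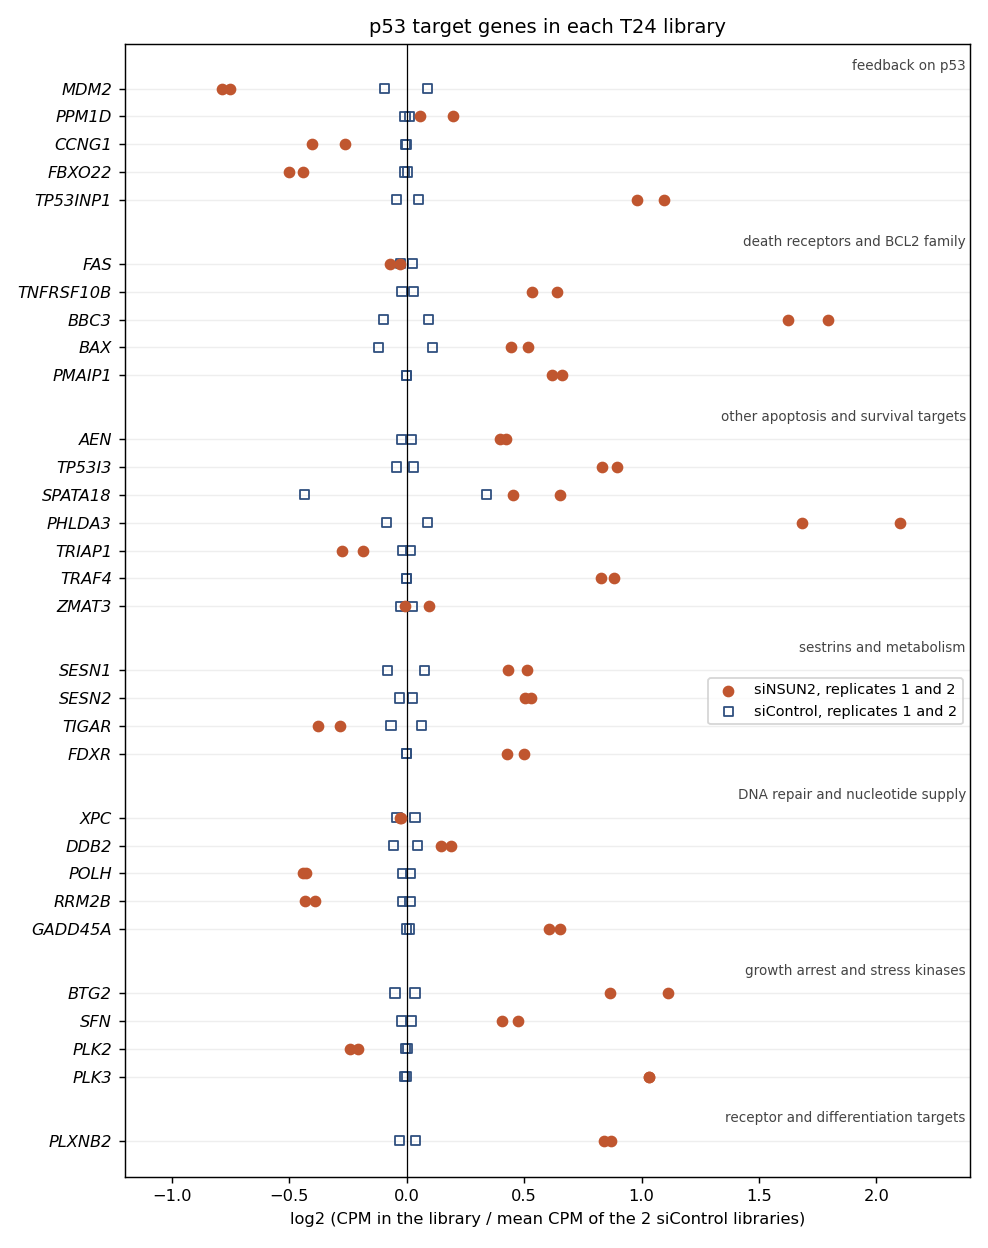
Each row is 1 of the 31 tested p53 target genes, grouped by role, and the x axis is the log2 ratio of a library's CPM to the mean CPM of the 2 siControl libraries. Filled circles are the siNSUN2 libraries and open squares the siControl libraries. BBC3 and PHLDA3 lie farthest to the right and MDM2 farthest to the left, while XPC and ZMAT3 overlap between groups.

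In these libraries fold change moved with the base composition of transcripts, so each tested member is also given after a correction for GC content and length. The correction removed the smooth trend of counts with both properties in each library before the same test. With it, 13 members were higher, 5 were lower and 13 were not called, against 21.9% higher and 24.8% lower over the 16286 genes with a GC content. The members' median was then 0.15. The correction cost 8 members their call and added 0.

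The counts within each role group below stand beside 27.1% higher and 25.5% lower over all genes tested. The feedback regulators were the group in which most members were lower: 3 of 5 fell, 1 rose and 1 was not called. After the correction 2 were lower and 1 was higher. The median GC content of this group was 41.3%. Of all genes below 50% GC with a mean log2 CPM above 3, 52.9% were called lower. MDM2 (ENSG00000135679), the ubiquitin ligase that degrades p53, was at 47.7 and 48.8 CPM in siNSUN2 libraries, against 76.9 and 87.4 CPM in siControl libraries. Both siNSUN2 values lay well below both siControl values. MDM2 had a log2 fold change of -0.77 with SE 0.064 (adjusted p = 4.01e-05), the lowest of the 31 members, and it stayed lower after the correction (-0.58; adjusted p = 0.0159). FBXO22, a substrate receptor of an SCF ubiquitin ligase that acts on p53, was at 44.4 and 42.6 CPM with siNSUN2, against 60.0 and 60.5 CPM with siControl. It fell by 0.47 on the log2 scale and by 0.32 after the correction, both called. CCNG1, cyclin G1, which recruits a phosphatase to MDM2, was at 205 and 186 CPM with siNSUN2, against 246 and 245 CPM with siControl. Its fall of 0.33 on the log2 scale was called, but the corrected value of -0.12 was not.

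TP53INP1 (ENSG00000164938), a stress protein that promotes phosphorylation of p53 and takes part in autophagy, moved the other way. It was at 3.32 and 3.59 CPM in siNSUN2 libraries, against 1.74 and 1.63 CPM in siControl libraries. Both siNSUN2 values were above both siControl values, and the log2 fold change was 1.04 (SE 0.18; adjusted p = 0.00105), with 1.23 after the correction. PPM1D, the phosphatase WIP1 that removes activating phosphates from p53, was at 25.7 and 23.3 CPM with siNSUN2, against 22.3 and 22.6 CPM with siControl. For PPM1D the log2 fold change of 0.13 had a 95% interval of -0.02 to 0.28 and was not called, and neither was the corrected value of 0.09. Without siNSUN2 replicate 2 it was called higher, at 0.21 (adjusted p = 0.0436).

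Among the death receptors and BCL2 family genes, 4 of 5 rose and 1 was not called. BBC3 (ENSG00000105327), which encodes the BH3-only protein PUMA that frees BAX and BAK to permeabilise mitochondria, was at 20.8 and 18.5 CPM with siNSUN2, against 6.40 and 5.61 CPM with siControl. The groups lay far apart, by a fold of 3.29 (log2 fold change 1.72, SE 0.096; adjusted p = 7.56e-07). PMAIP1, the BH3-only protein NOXA, was at 218 and 212 CPM with siNSUN2, against 138 CPM in each siControl library. The rise of PMAIP1 was 0.64 on the log2 scale (SE 0.039; adjusted p = 1.26e-06). After the correction BBC3 was at 1.08 and PMAIP1 at 0.86 on the log2 fold change scale, both called.

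TNFRSF10B, the TRAIL receptor DR5, was at 237 and 220 CPM in siNSUN2 libraries, against 155 and 150 CPM in siControl libraries. It rose by 0.58 on the log2 scale (SE 0.047; adjusted p = 6.66e-06), and 0.54 after the correction. BAX, the pore-forming effector of mitochondrial apoptosis, was at 51.8 and 54.5 CPM with siNSUN2, against 35.1 and 41.1 CPM with siControl. The groups did not overlap, but the siControl libraries differed from each other. The log2 fold change of BAX was 0.47 (adjusted p = 0.00411), and the corrected value of 0.15 was not called. Without siNSUN2 replicate 1 the adjusted p of BAX was 0.0523, and without siNSUN2 replicate 2 it was 0.075. FAS, the other death receptor of the list, was at 16.1 and 15.6 CPM with siNSUN2, against 16.1 and 16.7 CPM with siControl. The log2 fold change was -0.05, with a 95% interval of -0.20 to 0.10, and the corrected value was 0.16, neither called.

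Of 7 other apoptosis and survival targets, 4 rose, 1 fell and 2 were not called. PHLDA3 (ENSG00000174307), a pleckstrin-homology protein that keeps AKT off the membrane, had the highest log2 fold change of all members at 1.94 (SE 0.47; adjusted p = 0.00715). That value rests on few reads, 61 and 17 counts in the siNSUN2 libraries and 7 and 31 counts in the siControl libraries. As levels these are 0.664 and 0.497 CPM with siNSUN2, against 0.165 and 0.146 CPM with siControl. The groups did not overlap, yet the call was lost without siNSUN2 replicate 1 (adjusted p = 0.104) and without siControl replicate 2 (adjusted p = 0.0569). The corrected value was 1.32 (adjusted p = 0.0429), and with the replicate number as a block beside the correction it was 1.25 and not called (adjusted p = 0.0643).

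TP53I3, a quinone oxidoreductase linked to oxidant production, was at 25.5 and 24.4 CPM with siNSUN2, against 14.0 and 13.3 CPM with siControl. TRAF4, a signalling adaptor of the TRAF family, was at 164 and 158 CPM with siNSUN2, against 88.9 CPM in each siControl library. For both genes the siNSUN2 values were well above the siControl values, with log2 fold changes of 0.87 for TP53I3 and 0.86 for TRAF4. The corrected values were 0.63 and 0.50, and both calls were kept.

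AEN, an apoptosis-enhancing nuclease, was at 113 and 111 CPM in siNSUN2 libraries, against 83.1 and 85.5 CPM in siControl libraries. AEN rose by 0.41 on the log2 scale, and a corrected 0.17 was still called. TRIAP1, a small mitochondrial protein that favours survival, was at 29.4 and 27.6 CPM with siNSUN2, against 33.8 and 33.0 CPM with siControl. It fell by 0.23 on the log2 scale (adjusted p = 0.007), and the corrected value of -0.05 was not called. Without siNSUN2 replicate 2 its adjusted p was 0.0524. ZMAT3, a zinc finger RNA-binding protein, was at 18.6 and 20 CPM with siNSUN2, against 18.4 and 19.0 CPM with siControl, and the groups overlapped. ZMAT3 had a log2 fold change of 0.04, with a 95% interval of -0.11 to 0.19, and a corrected value of 0.10, neither called. SPATA18, a regulator of mitochondrial quality, was near the detection limit at 0.305 and 0.351 CPM with siNSUN2, against 0.165 and 0.282 CPM with siControl, and its log2 fold change of 0.46 had an interval of -0.72 to 1.64, too wide to show a direction. The corrected value of 0.58 was not called.

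The sestrins, which restrain mTORC1 and oxidants, were both higher. SESN1 was at 12.5 and 13.2 CPM with siNSUN2, against 8.75 and 9.76 CPM with siControl, and SESN2 was at 46.8 and 47.6 CPM with siNSUN2, against 32.3 and 33.6 CPM with siControl. Neither gene had overlapping groups, and the log2 fold changes were close, 0.47 for SESN1 and 0.51 for SESN2. The correction parted them: SESN1, whose transcripts hold 41.5% GC, was at 0.69 and called, whereas SESN2, at 59.5% GC, was at 0.10 and not called.

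FDXR, ferredoxin reductase of mitochondrial electron transfer, was at 29.1 and 27.7 CPM with siNSUN2, against 20.6 CPM in each siControl library. The groups lay apart, with a log2 fold change of 0.47, but the corrected value of -0.12 had the opposite sign and was not called. TIGAR, a fructose bisphosphatase that slows glycolysis, was at 38.5 and 36.1 CPM with siNSUN2, against 44.8 and 49.0 CPM with siControl. It fell by 0.33 on the log2 scale, with a corrected value of -0.14 that was not called.

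The genes of DNA repair and nucleotide supply were split, with 2 higher, 2 lower and 1 not called. GADD45A, a stress sensor that binds PCNA, was at 190 and 184 CPM in siNSUN2 libraries, against 122 and 121 CPM in siControl libraries. It rose by 0.63 on the log2 scale and by a corrected 0.53. POLH, the translesion polymerase eta, was at 25.9 and 26.2 CPM with siNSUN2, against 35.6 and 34.8 CPM with siControl. RRM2B, the p53-inducible subunit of ribonucleotide reductase, was at 52.0 and 50.5 CPM with siNSUN2, against 68.9 and 67.4 CPM with siControl. Both genes were lower in both siNSUN2 libraries than in either siControl library, by log2 fold changes of -0.43 for POLH and -0.41 for RRM2B. Both calls were kept after the correction, at -0.34 and -0.20.

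The damage recognition genes of nucleotide excision repair had log2 fold changes close to 0. XPC was at a log2 fold change of -0.02, with a 95% interval of -0.14 to 0.09 and overlapping groups, and at a corrected -0.13, neither called. Its annotated exons overlap those of LSM3 on the opposite strand, which had 35173 counts over the libraries against 14853 for XPC, and whether the counting used strand was not stated in the sources used here. DDB2 was at 23.6 and 22.9 CPM with siNSUN2, against 21.4 and 19.9 CPM with siControl. Its log2 fold change of 0.17 passed the threshold narrowly (adjusted p = 0.0469), and the corrected value of 0.05 was not called. The uncorrected call was also lost on leaving out any of the 4 libraries: the adjusted p was 0.182 without siNSUN2 replicate 1, 0.0769 without siNSUN2 replicate 2, 0.139 without siControl replicate 1 and 0.382 without siControl replicate 2.

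Of the growth arrest genes and stress kinases, 3 rose and 1 fell. PLK3 (ENSG00000173846), a stress-activated polo-like kinase, was at 28.6 CPM in each siNSUN2 library, against 14.0 and 13.9 CPM in siControl libraries. PLK3 rose by 1.03 on the log2 scale, and a corrected 0.55 was called. PLK2, its close relative, moved the other way, at 293 and 286 CPM with siNSUN2, against 337 and 339 CPM with siControl. It fell by 0.23 on the log2 scale and by a corrected 0.11, both called.

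BTG2, an antiproliferative partner of the mRNA deadenylase complex, was at 2.17 and 2.57 CPM with siNSUN2, against 1.15 and 1.22 CPM with siControl. Both siNSUN2 values were above the siControl values, and the log2 fold change was 0.99, or 0.98 after the correction (SE 0.22 and adjusted p = 0.00434 before it). SFN, the 14-3-3 sigma protein that holds back mitotic entry, was at 111 and 106 CPM with siNSUN2, against 81.2 and 78.8 CPM with siControl. Its log2 fold change of 0.44 was called, whereas the corrected value of -0.08 was not. PLXNB2, a semaphorin receptor, was at 269 and 263 CPM with siNSUN2, against 144 and 151 CPM with siControl, a log2 fold change of 0.85 and a corrected 0.30, both called. PRDM1, the repressor BLIMP1, had 2 and 7 counts in siNSUN2 libraries and 0 and 4 counts in siControl libraries, and was not tested.

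**Figure D2:**
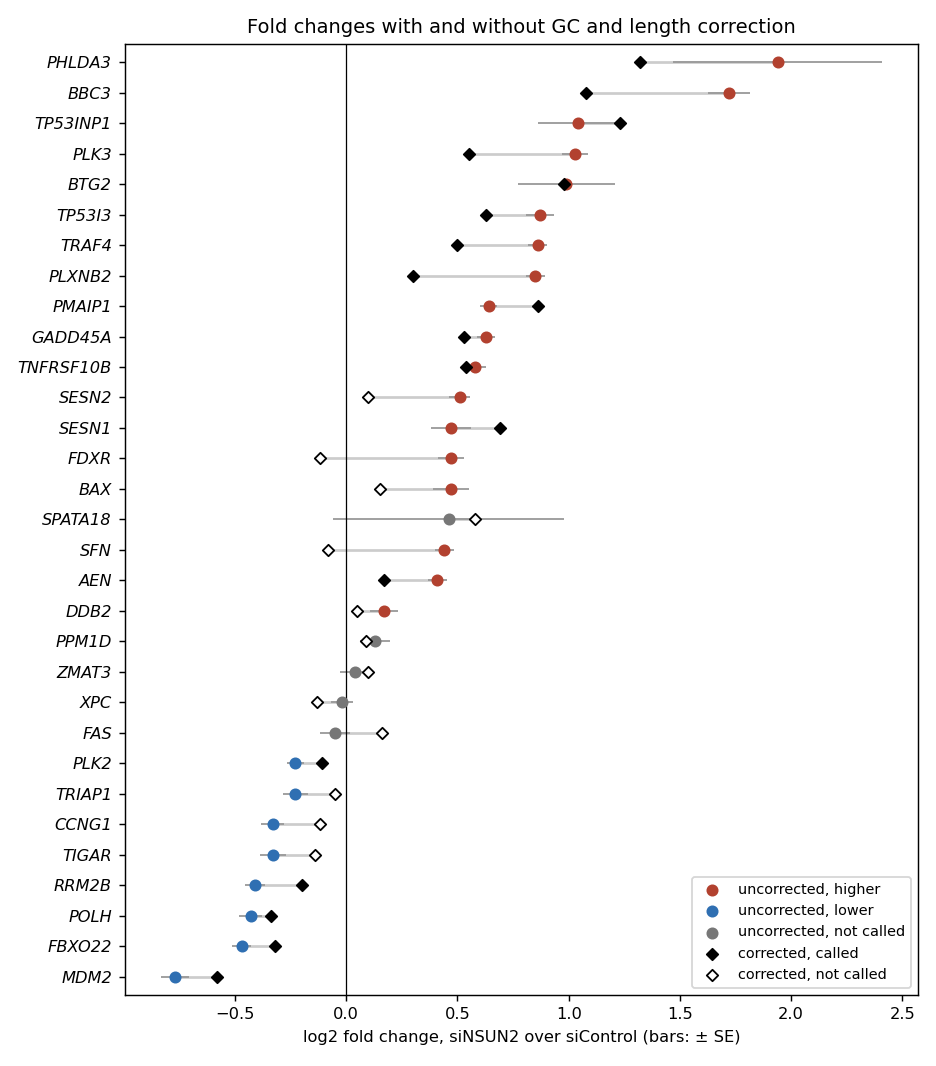
Circles give the log2 fold change of each tested member, siNSUN2 over siControl, with bars of 1 SE, and diamonds give the value after the GC and length correction, filled where called. PMAIP1, SESN1 and TP53INP1 lie farther right after the correction, while FDXR and SFN cross to the left of 0.

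Members that were higher had GC-rich transcripts and those that were lower had GC-poor ones. The median GC content was 58.2% for the 18 higher members (39.5% to 64.8%), 45.8% for the 5 not called and 42% for the 8 lower members (39.7% to 46.8%). Of 17 members at or above 50% GC, 15 were higher, 0 were lower and 2 were not called, with a median log2 fold change of 0.58. Of 14 members below 50% GC, 3 were higher (TP53INP1, PMAIP1 and SESN1), 8 were lower and 3 were not called, with a median of -0.23. The split at 50% was chosen after the values were known. All genes with a mean log2 CPM above 3 followed the same trend: at or above 50% GC, 59.5% were called higher and 15.3% lower, and below it, 18.6% were called higher and 52.9% lower. Across the 31 members Pearson's r between GC content and log2 fold change was 0.66 and Spearman's rho 0.56, against 0.34 and 0.41 across the 16286 genes. These are descriptions across genes that share the same 4 libraries, and genes are not independent replicates. Whether the trend arose in the cells or in making the libraries was not tested.

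**Figure D3:**
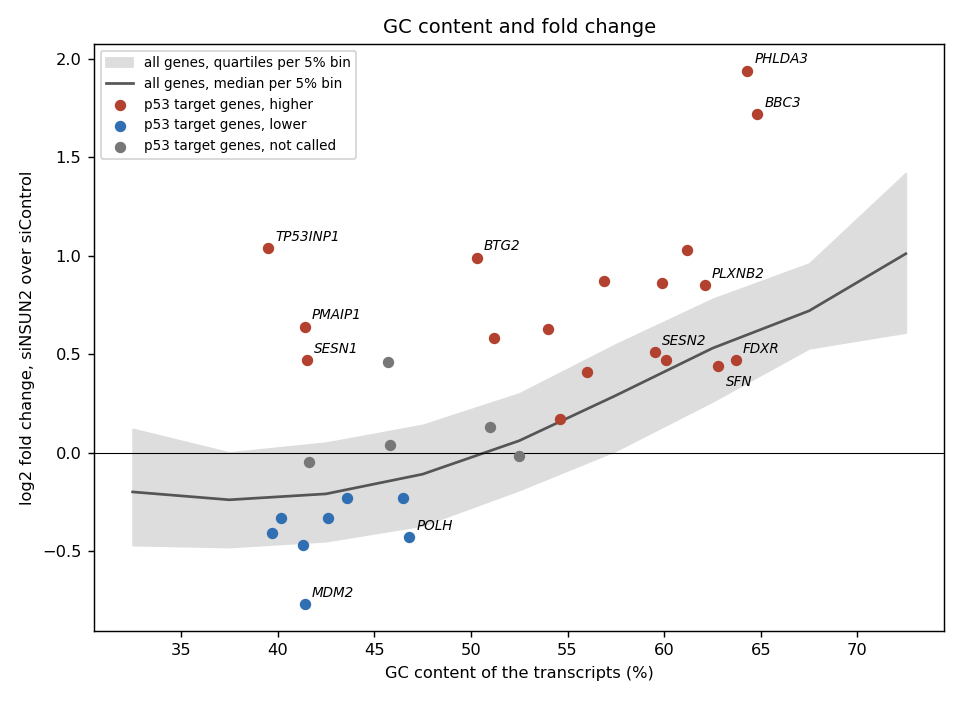
The x axis is the GC content of the transcripts in percent and the y axis the log2 fold change, siNSUN2 over siControl. Points are the 31 tested members, the dark line is the median per 5% bin of all genes with a mean log2 CPM above 3, and the band gives their quartiles. TP53INP1, PMAIP1, SESN1, BTG2, BBC3 and PHLDA3 are among those above the band, and MDM2 lies farthest below it.

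The 5 members also known as ATF4 or CHOP targets (SESN2, TNFRSF10B, PMAIP1, BBC3 and GADD45A) were all higher, with a median log2 fold change of 0.63. Of the other 27 members, 26 were tested, of which 13 were higher, 8 were lower and 5 were not called, with a median of 0.29. After the correction 4 of the 5 were still higher, with a median of 0.54, and of the 26 others 9 were higher and 5 were lower, with a median of 0.09. The median GC content was 54.0% for the 5 and 48.5% for the other members. Over all genes tested 27.1% were called higher, and 59.5% of those at or above 50% GC with a mean log2 CPM above 3. The difference between these groups of members was not tested.

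TP73, a p53 relative that can bind the same motif, was at 29.2 and 28.9 CPM with siNSUN2, against 17.4 and 17.1 CPM with siControl. TP73 rose by 0.75 on the log2 scale, and a corrected 0.20 was called. TP63, the other relative, was at or under 0.0235 CPM in every library. MDM4, the partner of MDM2 that blocks p53 activity, was at 40.4 and 42.9 CPM with siNSUN2, against 33.3 and 34.7 CPM with siControl, a log2 fold change of 0.29. Among all genes tested, 27.1% were called higher and 25.5% lower. Of 31 tested genes of the p53 family, its activators, partners and inhibitors, 10 (32.3%) were higher, 12 (38.7%) were lower and 9 were not called. Their median was 0.03. After the correction 9 were higher and 13 were lower, with a median of -0.10. Of those not yet named, PPP1R13L (log2 fold change 0.93), which encodes the p53 inhibitor iASPP, and PML (0.40), the scaffold of nuclear bodies, had the smallest p among the higher genes. After the correction PPP1R13L was at 0.20 and called higher, and PML was at -0.15 and called lower. USP10 (-0.98), a deubiquitinase of p53, and HIPK2 (-0.56), a kinase that phosphorylates p53, had the smallest p among the lower genes.

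Lists of related genes are set beside the share over all genes tested, 27.1% higher and 25.5% lower, or 21.9% and 24.8% after the correction. Of a further 44 p53 targets, 40 were tested. Of these, 26 (65.0%) were higher, 7 (17.5%) were lower and 7 were not called, with a median log2 fold change of 0.36. After the correction 24 were higher and 8 were lower, with a median of 0.38. CDKN1A, which encodes the CDK inhibitor p21, was at 237 CPM in each siNSUN2 library, against 107 and 112 CPM in siControl libraries. GDF15, a secreted stress cytokine, was at 231 and 225 CPM with siNSUN2, against 50.9 and 51.4 CPM with siControl. Their log2 fold changes were 1.11 for CDKN1A and 2.16 for GDF15, the second larger than that of any member. The corrected values were 0.80 and 1.64. PIDD1 (1.34, corrected 0.60), a scaffold of caspase-2 activation, was among the higher ones. CMBL (-1.87, corrected -1.77) and TM7SF3 (-0.58, corrected -0.51) were among the lower ones. Of 24 cell cycle genes that p53 represses through p21 and the DREAM complex, 18 were lower, 3 were higher and 3 were not called, with a median of -0.28. After the correction 15 were lower and 1 was higher, with a median of -0.27. The median GC content of this list was 46.5%. Of all genes below 50% GC with a mean log2 CPM above 3, 52.9% were called lower. CCNB1 (-0.70), the mitotic cyclin B1, and BUB1 (-0.55), a spindle checkpoint kinase, were lower, and E2F1 (0.58) and MYBL2 (0.50) were higher before the correction but not after it (0.03 and 0.06). Genes of the integrated stress response had a median GC content of 53.4%. Of all genes at or above 50% GC with a mean log2 CPM above 3, 59.5% were called higher. Of 22 genes of the integrated stress response, 19 were higher and 3 were lower, with a median of 0.65. After the correction 16 were higher and 4 were lower, with a median of 0.45. ATF3 (1.44) and DDIT4 (1.40) were the higher genes with the smallest p, and PSAT1 (-0.73) and DNAJC3 (-0.39) the lower ones.

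**Figure D4:**
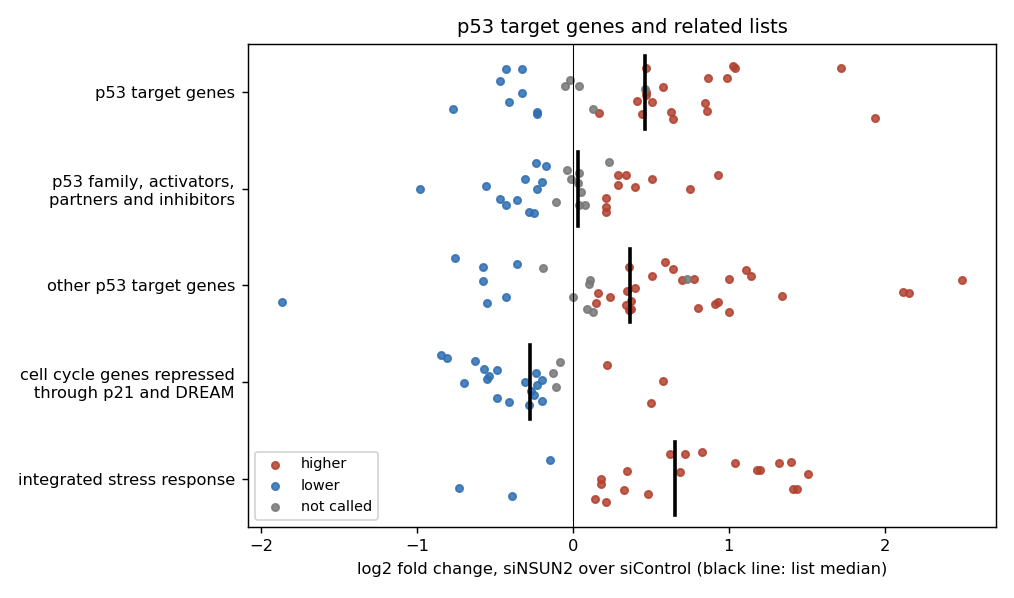
Each point is a tested gene, placed by its log2 fold change, siNSUN2 over siControl, with the list median as a black line. The medians are 0.46 for the p53 target genes, 0.03 for the p53 family and its regulators, 0.36 for the other p53 targets, -0.28 for the cell cycle genes and 0.65 for the integrated stress response.

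The hexamer ACCCTA was searched in the longest annotated 3′ UTR of each gene, because genes that hold it were called lower more often than higher in these libraries. Over all tested genes with a searched UTR, 44.7% of those with the word were called lower and 22.9% higher. Of those without it, 27.0% were called lower and 36.6% higher. The word was picked from these same fold changes, so these shares are no support for an effect of it. GC content and UTR length were not accounted for in them. It was present in 9 of the 32 members (28.1%), and in 21.3% of 12439 tested genes. Of these 9, MDM2, FBXO22, RRM2B and PLK2 were lower, BAX, TRAF4 and TP53INP1 were higher, SPATA18 was not called and PRDM1 was not tested. Of the 23 members without it, 15 were higher, 4 were lower and 4 were not called. The 4 lower members with the word had 39.7% to 46.5% GC. Of the higher members with the word, BAX and TRAF4 had 60.1% and 59.9% GC, and TP53INP1 had 39.5%. The stretches below are shown because they hold the word in 3 of the lower members and 2 of the higher ones. Each reads 5′ to 3′ in the sense of the mRNA, in DNA letters from GENCODE release 29, with the word in capitals together with an A that extends it on either side.
MDM2: tctaactatatAACCCTAggaatttagaca
FBXO22: tgcttaaagcaAACCCTAAccctcaaccta
PLK2: cttttcgaatggACCCTAtgggactcctct
BAX: gatgaccctctgACCCTAgctctttccttt
TRAF4: attagtgcttctACCCTAggcagggctttc
The word starts at base 42 of the MDM2 UTR, which is 10837 bases long, and at base 17 of the PLK2 UTR, which is 601 bases long. FBXO22, which fell, holds 3 matches in a UTR of 9408 bases. MDM2, PLK2 and RRM2B, which also fell, hold 1 each, as do BAX, TRAF4 and TP53INP1, which rose. The UTR of BAX is 701 bases long and that of TRAF4 1381 bases. A match is a description and not a site of action.

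Promoters were read for 26 of the 32 members from RefSeq on GRCh38.p14, as 250 bases before to 50 bases after the start. An exact match to the 10-base p53 consensus motif, on either strand, was present in 3 of the 26 (11.54%), and in 6.54% of 27305 promoters. A paired site, with 20 bases, no spacer, at most 2 mismatches and both cores intact, was present in 1 of the 26 (3.846%), that of AEN, and in 0.15% of all promoters. The matched windows are shown because they hold a match to this consensus, with each match in capitals, read 5′ to 3′ in the direction of transcription. AEN holds the paired site, while FDXR and PLK2 hold a single 10-base match, which is only 1 part of the paired motif. Binding of p53 to these windows was not tested.
AEN: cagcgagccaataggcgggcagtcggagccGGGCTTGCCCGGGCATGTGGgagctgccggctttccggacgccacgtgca
FDXR: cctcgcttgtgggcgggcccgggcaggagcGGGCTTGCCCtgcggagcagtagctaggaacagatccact
PLK2: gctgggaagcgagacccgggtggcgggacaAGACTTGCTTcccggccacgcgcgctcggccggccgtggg
The AEN window is chr15:88621276-88621355 on the plus strand, the FDXR window chr17:74872966-74873035 on the minus strand and the PLK2 window chr5:58460179-58460248 on the minus strand. The matches start at -34 in AEN, -11 in FDXR and -132 in PLK2 relative to the annotated start. Before the correction AEN and FDXR rose and PLK2 fell. After it AEN was at 0.17 and PLK2 at -0.11, both called, and FDXR was at -0.12 and not called. For the other 23 members with a promoter, no exact match lies in the window searched, which says nothing about sites elsewhere.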

How the data were processed

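Poly(A) RNA of 4 T24 libraries, 2 siNSUN2 and 2 siControl, was made into stranded libraries and sequenced as Illumina read pairs, per the labels' protocols. The authors deposited raw counts per Ensembl gene, and per the submitters' processing notes HISAT2, HTSeq and hg19 were used. Versions, annotation and strand setting were not given in the sources used here. Library totals ran from 33633249 to 215936965 counts, so low genes are least precise in the shallowest library. Every count column and row was used.

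Groups came from the sample titles. edgeR 4.0.16 (R 4.3.3; TMM factors, filterByExpr, robust quasi-likelihood F-test, two-sided) was fitted once on all genes without a replicate block, with Benjamini-Hochberg adjustment over 16889 genes and a threshold of 0.05. CPM is a gene's count in 1e+06 counts of its library's TMM-scaled total. The GC and length correction added loess offsets (span 0.3) per library, from GENCODE release 29 matched by gene ID alone because it is on GRCh38. Symbols were found for 51535 IDs. The fit was also run on counts simulated from the siControl means, with 200 genes changed. That simulation held no trend of fold change with GC content or length, so it does not bear on that trend. DESeq2 1.42.0, limma 3.58.1 and the other alternatives are given at the end.

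The members and all gene lists were chosen with earlier results of these data known, so no p-value over a list is given. Named genes are all members, NSUN2, TP63, TP73, MDM4, CDKN1A, GDF15, and of each context list up to 2 further called genes with the smallest p in each direction; 2 genes that this rule names are not reported here.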

Additional observations from a re-analysis of the deposited data

How the results depend on the processing

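Of the 31 tested members, 16 kept call and direction under every alternative computed for them, of 19 in all, and 15 changed under at least 1. The GC and length correction reversed FDXR (-0.12), SFN (-0.08), FAS (0.16) and PML (-0.15), with the replicate block too (-0.13, -0.08, 0.16 and -0.15). With the longest transcript per gene, an alternative chosen after seeing the data, FDXR was at -0.14 and SFN at -0.06, and 3 members gained a call: FAS at 0.20 (adjusted p = 0.0317), PPM1D at 0.25 (adjusted p = 0.0137) and ZMAT3 at 0.19 (adjusted p = 0.0495). DDB2 was at -0.02 after thinning to the shallowest library, which also ended the calls of TP53INP1, PHLDA3 and BTG2. ZMAT3 was otherwise not called, and was at -0.03 with ACCCTA-bearing genes left out, and between -0.05 and 0.09 with 1 library left out. Leaving out ACCCTA-bearing genes took out MDM2, FBXO22, RRM2B and PLK2, all lower. Of the 23 members left, 4 were lower, the same number as in the reported fit. Members called lower, 8 as reported, numbered 5 with the correction, 5 with the correction and the replicate block, and 4 when tested against a fold of 1.2. That fold test left 2913 genes higher and 2529 lower, in the p53 family and its regulators 4 higher and 5 lower, 17 of the other targets higher, and 10 cell cycle genes lower. Without word-bearing genes, so with fewer genes tested, 6 of the p53 family and regulators were higher, 4 other targets lower and 1 stress response gene lower. Cell cycle genes called higher numbered 1 under both GC corrections and under the one with the block. Leaving out 1 library gave 15 to 17 members higher and 7 to 8 lower, and over all genes 3720 to 4231 higher and 3750 to 4695 lower. In those fits the lone library is assumed to vary like the other group. Replicate numbers occur in both groups, and the deviations of same-numbered libraries correlated at 0.156 over 2 pairs, too few to establish a pairing. With the replicate block 18 members were higher and 8 lower, and over all genes 5027 higher and 4788 lower. DESeq2 called 17 members higher and 8 lower, and limma-voom 18 and 8. Depth limits PHLDA3, SPATA18 and PRDM1, whose counts were lowest. Other causes of lost calls were not tested.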
